A study of Arabidopsis thaliana with 144 samples.

Results

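Purple acid phosphatases (PAPs) are metal-containing enzymes that release inorganic phosphate (Pi) from organic phosphate esters. Plants secrete some of them from roots and keep others on the root surface or in the vacuole, and many PAP genes are known as Pi starvation genes. A set of 10 of the 29 PAP genes of Arabidopsis thaliana was followed, chosen by name and locus identifier among the 27206 genes counted in the series. The 10 were PAP10 (AT2G16430), PAP12 (AT2G27190), PAP17 (AT3G17790), PAP26 (AT5G34850), PAP14 (AT2G46880), PAP22 (AT3G52820), PAP23 (AT4G13700), PAP25 (AT4G36350), PAP1 (AT1G13750) and PAP15 (AT3G07130). All 10 were among the 19321 genes that passed the filter on low counts, although PAP14, PAP23 and PAP25 passed it only through the groups in which they were high, so that some difference between groups was built in for these 3. Counts of called members that include these 3 carry the same limit.

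The libraries were RNA-seq of whole seedlings from 3 genotypes. These were the mutant phf1, the double mutant phr1 phl1 and the wild type Col-0. PHF1 helps Pi transporters of the PHT1 family leave the endoplasmic reticulum, and PHR1 with its relative PHL1 are transcription factors that switch on Pi starvation genes, many of which carry the P1BS motif in their promoters. The mutant alleles are not described in the labels. Seedlings spent 7 days on phosphite at 1 mM (+Phi; phosphite resembles Pi, but plants do not metabolise it), on 5 µM Pi (−P) or on 1 mM Pi (+P), in a medium with sucrose, and then 12 days without sucrose at a low Pi level of 50 µM or a high one of 625 µM. In that second period they grew with a synthetic community of bacteria (SynCom) or without bacteria. The 36 combinations had 4 libraries each, which the labels call biological replicates: 2 of experiment A and 2 of experiment B. Levels are given as CPM (counts per 1000000 counts, with library sizes scaled by TMM), and a gene was called changed by the quasi-likelihood test of edgeR, with Benjamini-Hochberg adjustment over all genes tested, at an adjusted p under 0.05. Values of a genotype, Pi level and bacterial state pool the 3 pre-treatments and both experiments (12 libraries). Log2 fold changes carry an approximate standard error, and CPM means carry their SD. That standard error was back-calculated, as the size of the log2 fold change divided by the square root of the test's F statistic. It is not the standard error of the fit, and the intervals of log2 fold changes rest on it. Such standard errors are unreliable where groups held few counts, which touches PAP14, PAP23 and PAP25. For PAP5 in Col-0, low over high Pi without bacteria, the standard error was 15261. They are also unreliable where the log2 fold change is very small. For PAP24, −P over +P in Col-0 over 4 conditions, the log2 fold change was 0.039 and the standard error 2.67. Ranges that do not overlap describe the members alone, with no share of all genes tested beside them.

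In the TAIR10.1 annotation of RefSeq, PAP12 lies on the minus strand at chr2:11621222-11623618, PAP17 on the plus strand at chr3:6089381-6091231, PAP14 on the minus strand at chr2:19264573-19266456, PAP23 at chr4:7957072-7958919 (minus) and PAP25 at chr4:17173737-17175857 (minus). The name PAP1 for AT1G13750 comes from the list of members, since the RefSeq table gives this locus no PAP symbol. That table lists PAP1 as an older name of PAP12 (AT2G27190), so PAP1 values here are those of AT1G13750 alone. The promoter motif P1BS, bound by PHR1, was searched as GNATATNC, which is its own reverse complement, in a window from 250 bases before to 50 bases after each annotated start. It occurred in 6.24% of 26718 such windows and in 20.3% of the 1000-base stretches before the start. In the 300-base window PAP14 held it at 2 sites and PAP12, PAP23, PAP25 and PAP1 at 1 site each, while PAP10, PAP17, PAP26, PAP22 and PAP15 held none. The site of PAP12 lay after the annotated start. In the 1000-base stretches PAP26 held 1 site, 902 bases before the start, and PAP1 held another, 478 bases before it. PAP10, PAP12, PAP17, PAP22 and PAP15 held none there. The 250 bases before the annotated start are shown for the members with a match there. Capitals mark the matches and each sequence reads 5′ to 3′ on the gene's strand (TAIR10.1):
PAP14, chr2:19266457-19266706 (minus): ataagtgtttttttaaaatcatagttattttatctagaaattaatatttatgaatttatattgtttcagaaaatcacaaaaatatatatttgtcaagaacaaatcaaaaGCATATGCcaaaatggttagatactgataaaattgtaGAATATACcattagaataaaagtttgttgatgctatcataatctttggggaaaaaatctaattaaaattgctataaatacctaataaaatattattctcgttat
PAP23, chr4:7958920-7959169 (minus): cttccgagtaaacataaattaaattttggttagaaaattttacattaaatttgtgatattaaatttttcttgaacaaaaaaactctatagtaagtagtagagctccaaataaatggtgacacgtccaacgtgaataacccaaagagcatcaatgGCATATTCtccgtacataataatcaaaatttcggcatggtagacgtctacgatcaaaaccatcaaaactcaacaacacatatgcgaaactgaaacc
PAP25, chr4:17175858-17176107 (minus): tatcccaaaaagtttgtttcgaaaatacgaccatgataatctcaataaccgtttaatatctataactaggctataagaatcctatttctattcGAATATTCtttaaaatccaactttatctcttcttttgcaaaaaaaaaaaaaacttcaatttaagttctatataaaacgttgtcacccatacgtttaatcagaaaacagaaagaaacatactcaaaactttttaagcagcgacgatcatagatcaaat
PAP1, chr1:4718270-4718519 (minus): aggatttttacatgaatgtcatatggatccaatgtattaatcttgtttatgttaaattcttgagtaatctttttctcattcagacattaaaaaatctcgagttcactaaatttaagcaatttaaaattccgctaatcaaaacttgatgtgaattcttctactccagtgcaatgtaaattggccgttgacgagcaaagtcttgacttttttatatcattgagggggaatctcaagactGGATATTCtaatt
The 2 sites of PAP14, GCATATGC and GAATATAC, began 141 and 104 bases before the annotated start. The site of PAP25, GAATATTC, began 157 bases before it, that of PAP23, GCATATTC, 96 bases before it, and that of PAP1, GGATATTC, 13 bases before it. A match is a description of these letters and no match says nothing about PHR1 at that gene.

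The encoded proteins ran from 338 residues in PAP17 to 613 in PAP1. Aligned pairwise among the members, PAP10 and PAP12 were the most alike (67.1% identity), followed by PAP23 and PAP15 (60.5%) and by PAP10 and PAP25 (59.7%). Outside the 10, PAP6 shared 86.7% of residues with PAP25, PAP21 72.3% with PAP22 and PAP27 68.4% with PAP1, so that reads could be shared by such pairs. PAP6 and PAP21 had 76 and 25 counts over all libraries. The libraries were not stranded, and PAP10, PAP17, PAP1 and PAP15 overlap a gene on the other strand in TAIR10.1. For these 4, reads of the pair within the shared stretch cannot be told apart, and its length is not given here.

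Libraries held 720256 to 10668475 gene counts (median 4104382). PHR1 averaged 30.4 ± 9.18 CPM in phr1 phl1 against 69.0 ± 12.6 CPM in Col-0 (n = 48 each). PHL1 averaged 70.1 ± 39.9 CPM in phr1 phl1 against 15.5 ± 8.10 CPM in Col-0, so its counts were higher in the double mutant. PHF1 averaged 19.1 ± 11.1 CPM in phf1 against 27.2 ± 27.8 CPM in Col-0 and so did not separate them. The PHR1 to PHL1 count ratio of 4 experiment A libraries went against the genotype label. These were Col-0 after +Phi at low Pi without bacteria (A1), and 3 at high Pi with SynCom. The 3 were phf1 after −P (A2), phf1 after +Phi (A1) and phr1 phl1 after +P (A1). Of the members' 115 called values, 7 were lost without these 4 libraries, and 3 were gained. Only some of these are named below. Root markers (7 of 7) and leaf markers (5 of 5) had counts, and the 3 pollen markers summed to at most 1.32 CPM in any library. The 3 seed markers reached 18.3 CPM in phr1 phl1 at high Pi without bacteria (median 0). In each other combination of genotype, Pi level and bacteria they summed to at most 0.544 CPM. In whole seedlings, more cells of a type and more RNA per cell cannot be told apart.

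**Figure D1:**
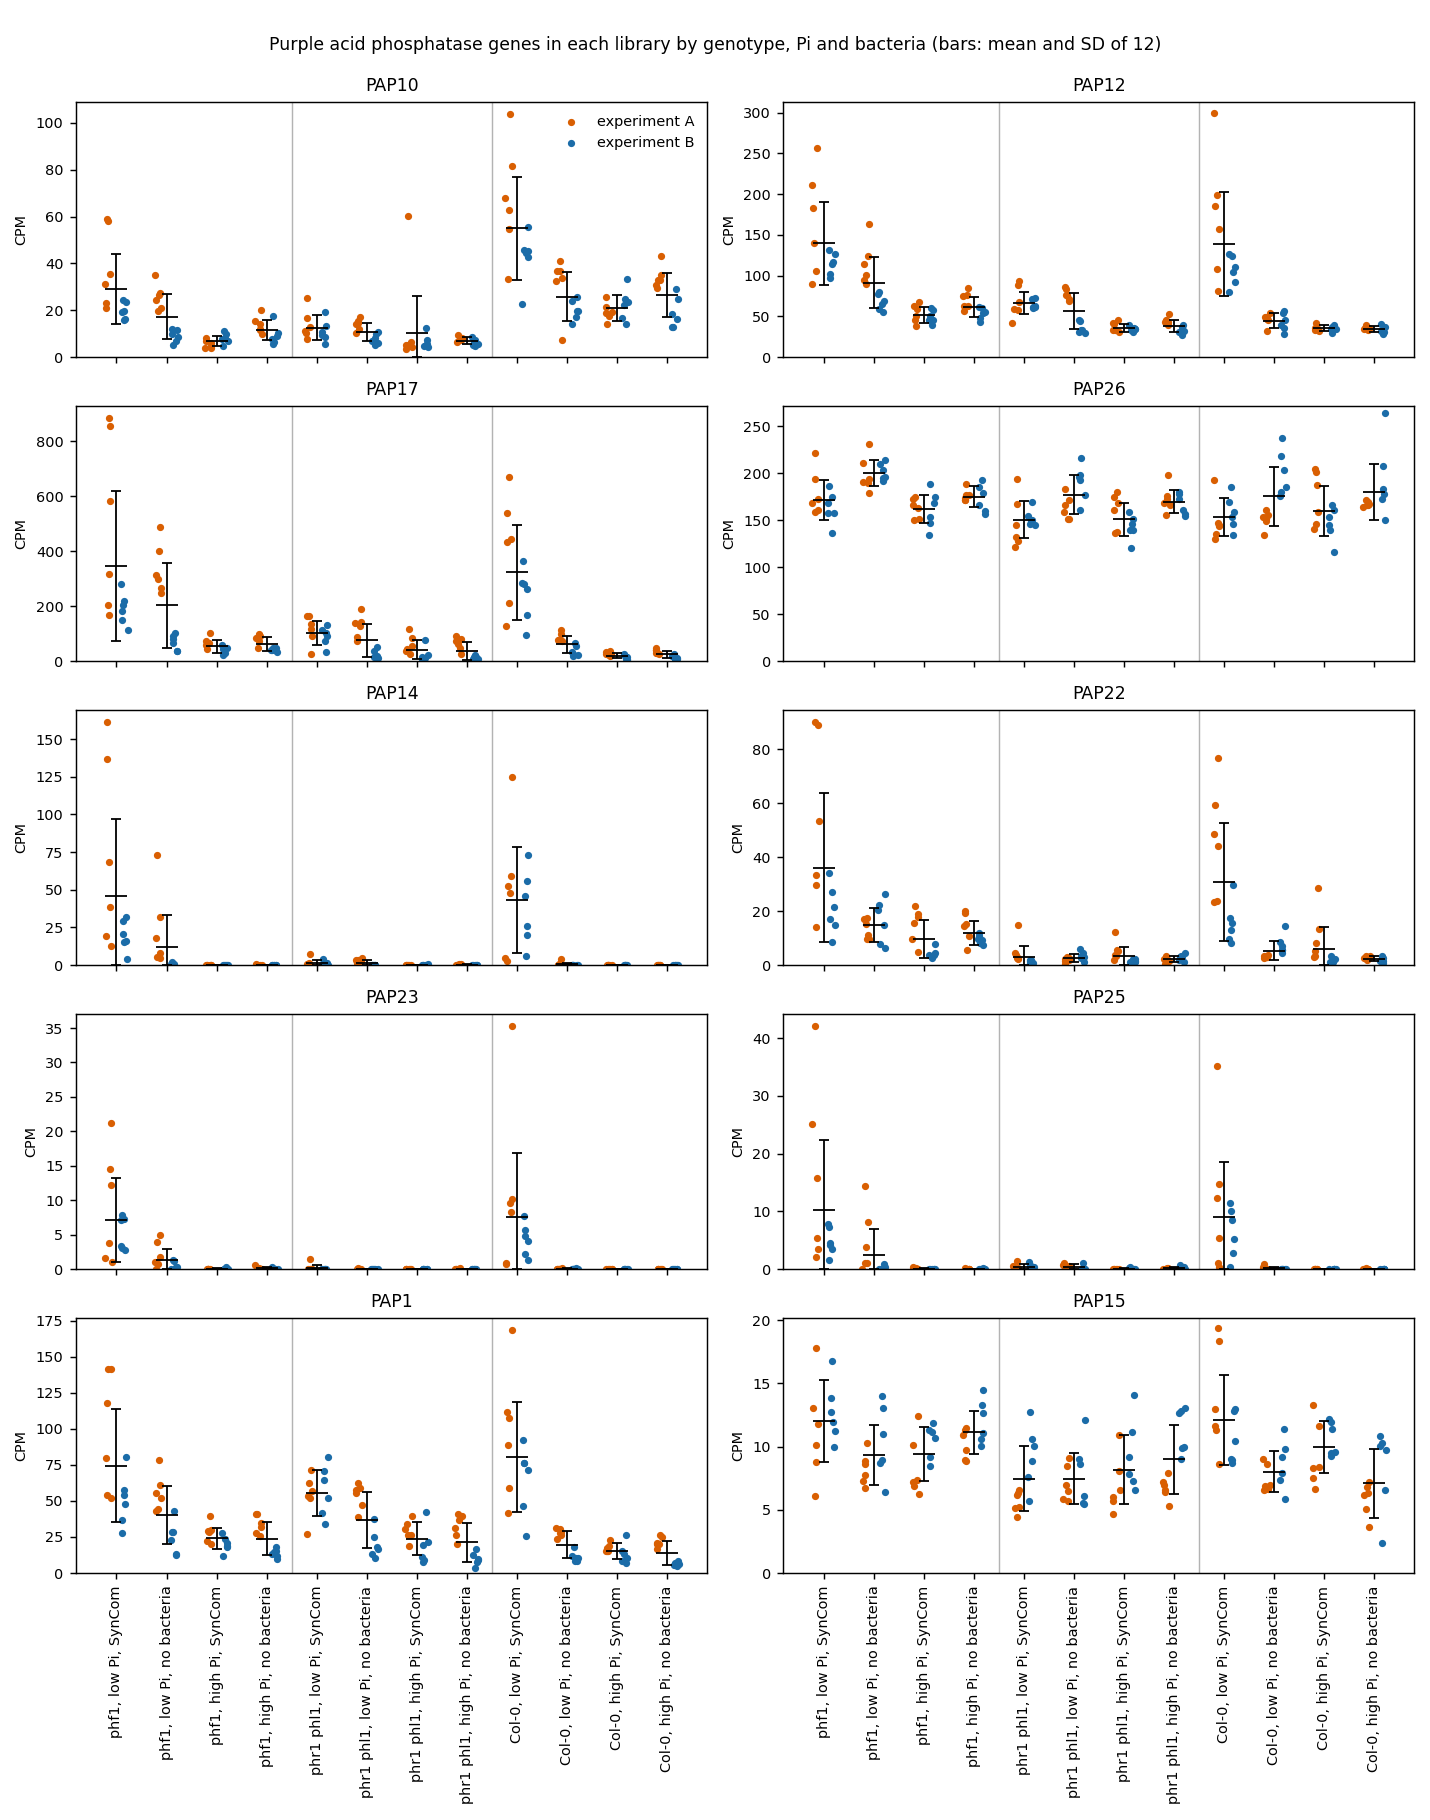
CPM of the 10 PAP genes in each library, by genotype, Pi and bacteria, with libraries of experiments A and B in different colours and black bars for the mean and SD of 12 libraries. PAP26 stayed between 116 and 265 CPM, while PAP14, PAP23 and PAP25 were at or near 0 in most libraries outside low Pi in Col-0 and phf1.

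The members differed widely in level. Per kilobase of coding sequence, PAP26, a vacuolar and secreted acid phosphatase, and PAP17, a small PAP that also has peroxidase activity, averaged 118 and 111 CPM over all libraries. PAP12, which is secreted by Pi-starved roots, averaged 47.1 CPM per kilobase, PAP1 19.4 and PAP10, held on the root surface, 13.9. Below these came PAP22 (8.24 CPM per kilobase), PAP14 (7.28), PAP15 (5.45), PAP25 (1.35) and PAP23 (0.986). PAP15 and PAP23 are known as phytases, which release Pi from phytate. The highest of the 36 group means was 1.54 times the lowest for PAP26, 2.19 times for PAP15, 5.44 times for PAP12 and 31.4 times for PAP17. PAP14 had 0 counts in 76 libraries, PAP25 in 86 and PAP23 in 101. The other 7 had counts in every library. Over all libraries the ranges of neighbours in this order overlapped, and PAP17 ran from 4.38 to 884 CPM, so that it was above PAP26 in some groups and below it in others.

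Low Pi in the presence of SynCom raised most of the 10 members in Col-0. Of the 10 members, 8 rose and 0 fell, where 22.2% of all genes tested were called higher. The members' median log2 fold change was 2.36, beside 0.02 over all genes tested. PAP26 and PAP15 were the members without a call.

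Among the enzymes known from the root surface and root secretions, PAP12 had 80.1 to 299.7 CPM (median 118) at low Pi and 29.995 to 42.4 CPM (median 35.8) at high Pi. The ranges did not overlap, and the log2 fold change was 1.88 ± 0.12 (adjusted p = 2.72e-27). PAP10 had 22.8 to 104 CPM (median 50.3) at low Pi and 13.997 to 33.2 CPM (median 20.5) at high Pi, with some overlap, and rose by 1.31 ± 0.22 (adjusted p = 8.21e-07). PAP26 had 130.4 to 193 CPM (median 147) at low Pi and 116 to 204 CPM (median 156) at high Pi. Its log2 fold change was −0.06 ± 0.07 (adjusted p = 0.544), with a 95% interval from −0.20 to 0.08. PAP26 is known as an enzyme whose protein, more than its transcript, rises under Pi starvation.

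PAP17 had 94.4 to 669 CPM (median 283) at low Pi and 4.38 to 37.4 CPM (median 20.8) at high Pi with SynCom. Every low Pi library was above every high Pi library, and the log2 fold change was 3.97 ± 0.29 (adjusted p = 9.1e-23). PAP1 had 25.7 to 169 CPM (median 76.5) at low Pi and 6.87 to 26.2 CPM (median 15.2) at high Pi, a rise of 2.31 ± 0.21 (adjusted p = 1.96e-17) with ranges that met at their ends. PAP22 had 8.36 to 76.7 CPM (median 23.6) at low Pi and 0.487 to 28.7 CPM (median 3.12) at high Pi and rose by 2.41 ± 0.32 (adjusted p = 6.67e-10). The overlap lay in experiment A at high Pi, where the mean was 10.3 ± 9.79 CPM and the highest library 28.7 CPM, while B had 1.81 ± 1.05 CPM (n = 6 each).

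PAP14, PAP23 and PAP25, of which the upstream sequences are shown above with that of PAP1, were close to absent at high Pi. PAP14 had 2.48 to 125 CPM (median 46.7) at low Pi, and 2 counts in all 12 high Pi libraries together. Over pooled libraries the ratio was 853, with a 95% counting interval from 236 to 7051. PAP23, the phytase-like member, had 0.678 to 35.3 CPM (median 5.22) at low Pi and 0 counts in the 12 high Pi libraries, so it was at least 101-fold higher than a floor of 3 counts over the high Pi group. PAP25, known from severely Pi-starved plants, had 0.328 to 35.1 CPM (median 6.91) at low Pi and 0 counts at high Pi, at least 115-fold higher by the same floor. All 3 were detected in each of the 12 low Pi libraries with SynCom and passed the test (adjusted p = 4.14e-19, 2e-12 and 1.01e-12 for PAP14, PAP23 and PAP25). Since the filter on low counts built in some difference for these 3, their p-values carry that limit. Counting intervals and floors cover counting error only. PAP15, the other phytase, had 8.58 to 19.3 CPM (median 11.4) at low Pi and 6.68 to 13.3 CPM (median 9.53) at high Pi and was not called (0.298 ± 0.15, adjusted p = 0.0872). The 7 root markers summed to 139 to 462 CPM (median 214) at low Pi and 124 to 604 CPM (median 177) at high Pi with SynCom, and their part in these values was not tested.

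**Figure D2:**
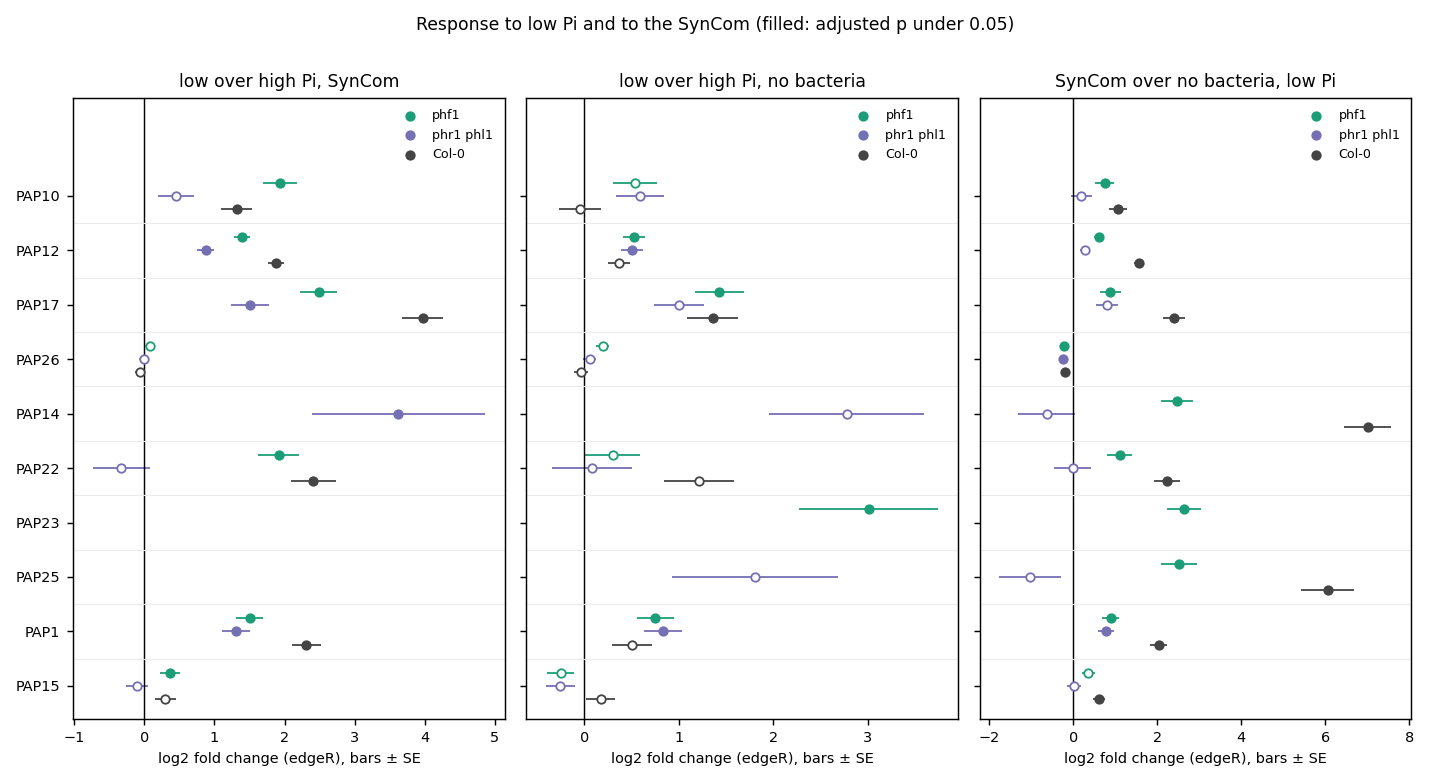
Log2 fold changes of the 10 PAP genes, with SE bars, for low over high Pi with SynCom, low over high Pi without bacteria and SynCom over no bacteria at low Pi, in phf1, phr1 phl1 and Col-0. Filled points passed at an adjusted p under 0.05, and points with 3 or fewer counts in either group of 12 libraries are left out, which removes most points of PAP14, PAP23 and PAP25; PAP17 reached 3.97 in Col-0 with SynCom and PAP26 stayed near 0 in all 3 panels.

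Without bacteria, low Pi moved 1 of the 10 members in Col-0, where 0.393% of all genes tested were called higher. PAP17 had 19.1 to 112 CPM (median 69.2) at low Pi and 6.46 to 46.1 CPM (median 26.8) at high Pi, and rose by 1.36 ± 0.27 (adjusted p = 0.00253). The ranges overlapped over both experiments and within B, did not overlap within A, and the log2 fold changes were 1.26 in A and 1.49 in B. Without the A2 libraries it was not called (1.39, adjusted p = 0.1). PAP12 had 0.37 ± 0.12, PAP1 0.51 ± 0.21 and PAP22 1.21 ± 0.37, none of them called. PAP14 had 35 counts over the low Pi libraries and 1 over the high Pi libraries (ratio 25.5, 95% counting interval 4.29 to 1038) and was not called.

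Of 90 differences between responses tested in the members, over 9 pairs of responses, 25 were called, against 4.82% over all genes tested. The response to low Pi was larger with SynCom than without in Col-0 for some of them. The difference of the log2 fold changes was called for 4 members, against 4.48% of all genes tested. It was 2.61 ± 0.38 for PAP17, 1.801 ± 0.29 for PAP1, 1.51 ± 0.17 for PAP12 and 1.36 ± 0.31 for PAP10 (adjusted p = 2.06e-07, 3.87e-06, 1.15e-11 and 0.00182 for PAP17, PAP1, PAP12 and PAP10). For PAP14, PAP23 and PAP25 the edgeR value of this difference was unreliable, since the high Pi groups held 0 to 2 counts, and edgeR called none of them. DESeq2 called 7 of the 10 members and limma-voom 8.

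SynCom given to Col-0 at low Pi raised 9 of the 10 members and lowered 1, against 14.1% and 12.9% of all genes tested. PAP17 had 94.4 to 669 CPM (median 283) with SynCom and 19.1 to 112 CPM (median 69.2) without, and rose by 2.40 ± 0.26 (adjusted p = 9.99e-13). PAP12 rose by 1.56 ± 0.12, PAP1 by 2.03 ± 0.20, PAP10 by 1.07 ± 0.22 and PAP15 by 0.61 ± 0.14. Of the 7 members with counts in every library, PAP12 was the 1 whose ranges did not overlap, with 80.1 to 299.7 CPM (median 118) with SynCom and 28.5 to 57.1 CPM (median 46.4) without.

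PAP14 had 2.48 to 125 CPM (median 46.7) with SynCom and 0 to 4.20 CPM (median 0) without at low Pi, and rose by 7.005 ± 0.56 (adjusted p = 2.49e-18). PAP25 held 459 counts with SynCom and 7 without, a ratio of 73.0 (95% counting interval 35.2 to 183). PAP23 held 404 counts with SynCom and 2 without, a ratio of 225 (61.9 to 1864). In Col-0, these 3 genes were thus counted almost wholly in seedlings that had both low Pi and bacteria. PAP26 moved the other way, with 130.4 to 193 CPM (median 147) with SynCom and 134 to 238 CPM (median 168) without, and fell by 0.19 on the log2 scale (SE 0.07, adjusted p = 0.0369). That call was lost without the B1 libraries and without the B2 libraries (−0.13, adjusted p = 0.259 and −0.15, adjusted p = 0.259). Root markers summed to 139 to 462 CPM (median 214) with SynCom and 82.9 to 199.8 CPM (median 137) without at low Pi, and their part in these values was not tested.

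At high Pi the same bacteria moved 1 of the 10 members in Col-0, against 4.78% of all genes tested called higher. PAP15 had 6.68 to 13.3 CPM (median 9.53) with SynCom and 2.39 to 10.8 CPM (median 6.70) without and rose by 0.49 ± 0.15 (adjusted p = 0.0314), a call that was lost without the A1, the A2 or the B1 libraries. PAP17 had −0.22 ± 0.28 and PAP12 0.06 ± 0.12. In phf1 and phr1 phl1 at high Pi, edgeR called 0 members, against 4.25% and 4.13% of all genes tested. At an unadjusted p under 0.05 the counts were 2 members in phf1 and 1 in phr1 phl1. DESeq2 called 0 and 0, and limma-voom 0 and 1, in phf1 and phr1 phl1.

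Several members were higher in phf1 than in Col-0 when bacteria were absent. Against Col-0 at low Pi without bacteria, 7 members were higher and 0 lower, where 2.03% of all genes tested were called higher. PAP17 had 35.96 to 489 CPM (median 174) in phf1 and 19.1 to 112 CPM (median 69.2) in Col-0 (1.501 ± 0.26, adjusted p = 2.02e-05). PAP12 had 55.1 to 163 CPM (median 85.2) in phf1 and 28.5 to 57.1 CPM (median 46.4) in Col-0 (0.99 ± 0.12, adjusted p = 1.55e-10). PAP14 had 0 to 73.0 CPM (median 3.41) in phf1 and 0 to 4.20 CPM (median 0) in Col-0 (4.42 ± 0.64), and PAP22, PAP23, PAP25 and PAP1 were the other members called higher. The spread in phf1 followed the experiments, with PAP14 at 23.5 ± 26.3 CPM in A and 0.809 ± 0.623 CPM in B (n = 6 each), and within B alone PAP12 and PAP1 were called higher and PAP10 lower. Without the A1 libraries the calls of PAP22, PAP23 and PAP25 were lost, and that of PAP22 was lost also without the A2 libraries. Root markers summed to 87.2 to 230.5 CPM (median 159) in phf1 and 82.9 to 199.8 CPM (median 137) in Col-0 at low Pi without bacteria, and their part in these values was not tested.

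At high Pi without bacteria, 5 members were higher and 1 was lower in phf1 than in Col-0, against 2.74% and 0.870% of all genes tested. PAP22 had 5.52 to 19.996 CPM (median 10.8) in phf1 and 0.955 to 3.499 CPM (median 2.57) in Col-0, without overlap (2.26 ± 0.35, adjusted p = 1.66e-06). PAP17 was higher by 1.43 ± 0.27, PAP12 by 0.83 ± 0.12, PAP1 by 0.77 ± 0.21 and PAP15 by 0.65 ± 0.15. The PAP15 call was lost without the B1 libraries and the PAP1 call without the A1, the B1 or the B2 libraries. PAP10 went against the others, with 5.51 to 20.02 CPM (median 10.9) in phf1 and 12.9 to 43.2 CPM (median 29.3) in Col-0 (log2 fold change −1.20 ± 0.23, adjusted p = 0.000245). With SynCom at high Pi, PAP17 and PAP12 were higher and PAP10 was lower, against 0.207% called higher and 0.0259% called lower among all genes tested. The PAP12 call was lost with any 1 of the 4 replicate numbers left out. PAP10 then had 4.04 to 11.2 CPM (median 6.89) in phf1 and 13.997 to 33.2 CPM (median 20.5) in Col-0, without overlap (−1.56 ± 0.25, adjusted p = 1.11e-05). The 7 root markers together had 108 to 215 CPM (median 165) in phf1 and 51.6 to 157 CPM (median 98.5) in Col-0 at high Pi without bacteria, and their part in these values was not tested.

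At low Pi with SynCom, phf1 and Col-0 were not told apart by the members. EdgeR called 0 of 10, against 0.0518% of all genes tested, with 2 members at an unadjusted p under 0.05, and DESeq2 and limma-voom called 0 and 1. PAP17 had 113 to 884 CPM (median 211) in phf1 and 94.4 to 669 CPM (median 283) in Col-0, with a difference of −0.01 ± 0.25 (95% interval −0.50 to 0.47). PAP10 had 15.9 to 58.8 CPM (median 23.5) in phf1 and 22.8 to 104 CPM (median 50.3) in Col-0, and missed the threshold at −0.94 ± 0.22 (adjusted p = 0.0603). Within phf1, low Pi raised 9 of 10 members with SynCom, PAP26 being the exception and PAP15 losing its call without the A1, the A2 or the B1 libraries, and 6 of 10 without bacteria, against 19.8% and 3.04% of all genes tested. The count without bacteria was 1 without the A1 libraries and 0 within experiment B. PAP10 had 15.9 to 58.8 CPM (median 23.5) at low Pi and 4.04 to 11.2 CPM (median 6.89) at high Pi with SynCom, and rose by 1.93 ± 0.24 without overlap. The difference between the Pi responses with and without SynCom was called for 5 members in phf1, PAP22 (1.61 ± 0.42), PAP10 (1.40 ± 0.34), PAP17 (1.06 ± 0.36), PAP12 (0.86 ± 0.16) and PAP15 (0.62 ± 0.21), against 4.88% of all genes tested. Of these the PAP12 and PAP22 calls held with each replicate number left out in turn. Fewer than 5 members were called without the libraries whose PHR1 to PHL1 ratio went against the label. Root markers summed to 221 to 458 CPM (median 299) at low Pi and 109.8 to 285 CPM (median 161) at high Pi in phf1 with SynCom, and their part in these values was not tested.

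SynCom at low Pi raised 8 members in phf1 and lowered PAP26 (log2 fold change −0.22 ± 0.07, adjusted p = 0.019), against 8.97% called higher and 8.48% called lower among all genes tested. The rise was smaller in phf1 than in Col-0 for 6 members, where 0.300% of all genes tested had a lower response in phf1. PAP12 rose by 0.62 ± 0.11 in phf1 and 1.56 ± 0.12 in Col-0 (difference −0.95 ± 0.16, adjusted p = 6.66e-05). PAP14 rose by 2.48 ± 0.39 in phf1 and 7.005 ± 0.56 in Col-0 (difference −4.53 ± 0.74, adjusted p = 4.03e-05). PAP17, PAP1, PAP23 and PAP25 were the other members called, and all 6 calls were lost without the A1 libraries and within experiment B. All 6 were called higher in phf1 without bacteria at low Pi, and none of them was called between phf1 and Col-0 with SynCom. Root markers summed to 221 to 458 CPM (median 299) with SynCom and 87.2 to 230.5 CPM (median 159) without in phf1 at low Pi, and their part in these values was not tested.

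**Figure D3:**
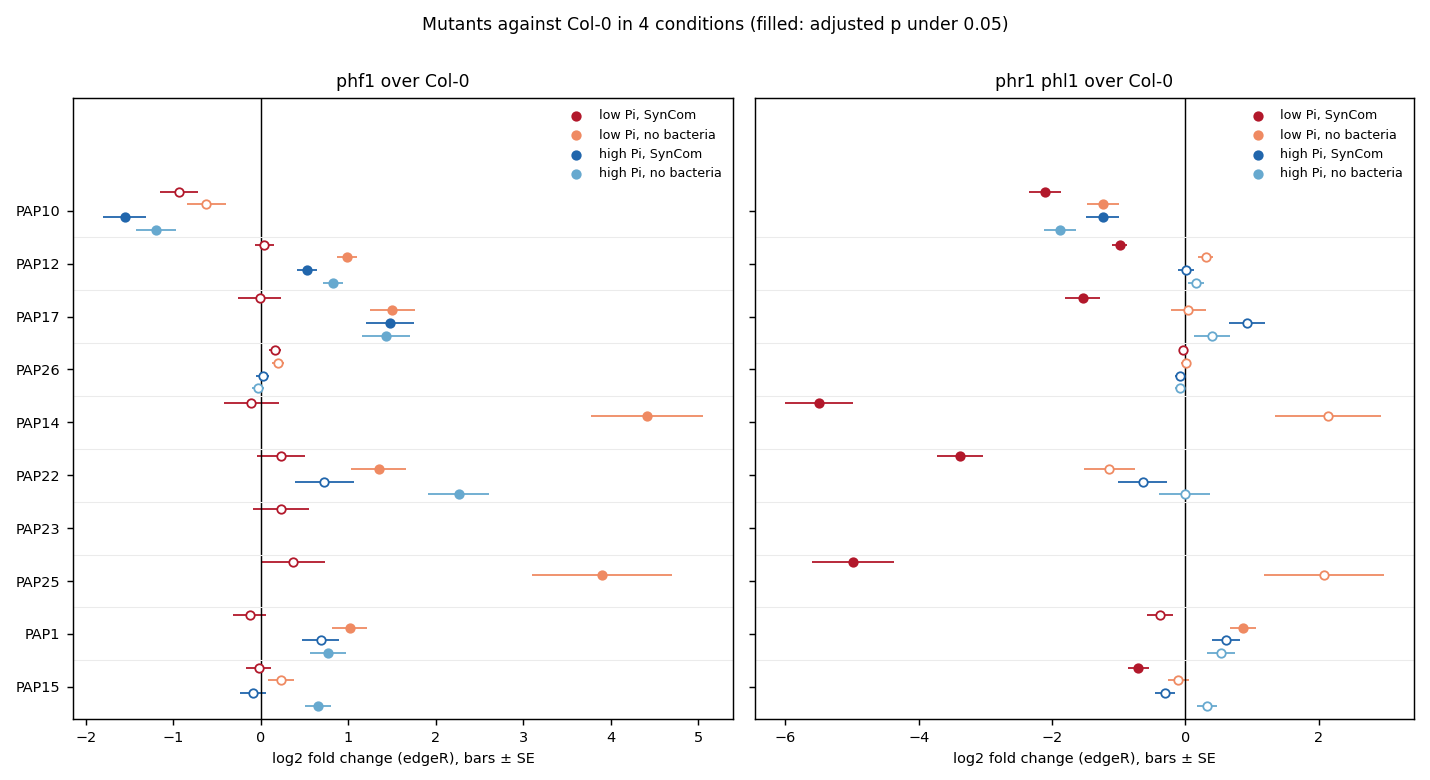
Log2 fold changes of phf1 over Col-0 and of phr1 phl1 over Col-0 for the 10 PAP genes, with SE bars, at low and high Pi with SynCom and without bacteria; filled points passed at an adjusted p under 0.05, and points with 3 or fewer counts in either group are left out. PAP10 lies below 0 in all 8 comparisons, and PAP12 and PAP17 are filled and above 0 in phf1 in 3 of 4 conditions, the exception being low Pi with SynCom.

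Most of the 10 members were lower in phr1 phl1 than in Col-0 at low Pi with SynCom. The test called 8 members lower and 0 higher, where 13.5% of all genes tested were called lower. The members' median log2 fold change was −1.82, beside 0.00 over all genes tested. PAP22 had 0.636 to 14.9 CPM (median 2.105) in phr1 phl1 and 8.36 to 76.7 CPM (median 23.6) in Col-0 (−3.38 ± 0.35, adjusted p = 7.46e-14). PAP10 had 5.73 to 25.3 CPM (median 11.1) in phr1 phl1 and 22.8 to 104 CPM (median 50.3) in Col-0 (−2.11 ± 0.24, adjusted p = 3.47e-12). Both pairs of ranges overlapped in a few libraries.

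PAP17 had 26.2 to 165 CPM (median 108) in phr1 phl1 and 94.4 to 669 CPM (median 283) in Col-0 (−1.54 ± 0.26), and PAP12 had 42.6 to 94.0 CPM (median 62.2) in phr1 phl1 and 80.1 to 299.7 CPM (median 118) in Col-0 (−0.99 ± 0.12). PAP14 had 0 to 7.43 CPM (median 0.412) in phr1 phl1 and 2.48 to 125 CPM (median 46.7) in Col-0 (−5.50 ± 0.51). PAP23 held 1 count in phr1 phl1 and 404 in Col-0 (ratio 0.00299, 95% counting interval 7.56e-05 to 0.0168), and PAP25 held 10 counts in phr1 phl1 and 459 in Col-0 (ratio 0.0264, 0.0126 to 0.0489). PAP14, PAP23 and PAP25, with P1BS matches upstream, and PAP22, with no match in the window, had the lowest ratios. PAP1, with 1 match in the window and 1 further upstream, was not called lower: it had 26.9 to 80.5 CPM (median 55.4) in phr1 phl1 and 25.7 to 169 CPM (median 76.5) in Col-0 (−0.38 ± 0.19, adjusted p = 0.126). PAP26, with a match only further upstream, had −0.03 ± 0.07. The 7 root markers together had 54.4 to 217 CPM (median 116) in phr1 phl1 and 139 to 462 CPM (median 214) in Col-0 at low Pi with SynCom, and their part in these values was not tested.

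PAP10 was the member that was lower in phr1 phl1 in all 4 conditions. Without bacteria at high Pi it had 5.0003 to 9.44 CPM (median 7.25) in phr1 phl1 and 12.9 to 43.2 CPM (median 29.3) in Col-0, without overlap (−1.87 ± 0.24, adjusted p = 1.53e-08), and it was the 1 member called there, where 0.0155% of all genes tested were called lower. At high Pi with SynCom its log2 fold change was −1.24 ± 0.24 (adjusted p = 0.00258), again the 1 member called, against 0.471% of all genes tested. In that group the library labelled phr1 phl1, +P, A1 had 60.3 CPM of PAP10, far above the other 11, and it is 1 of the 4 libraries whose PHR1 to PHL1 ratio went against the label. Without those 4 libraries the value was −1.87, adjusted p = 6.39e-10, and within experiment A, with them, it was −0.99, adjusted p = 0.11. At low Pi without bacteria PAP10 (log2 fold change −1.24 ± 0.24) and PAP1 (0.86 ± 0.20) were the 2 members called there, against 1.72% called lower and 2.23% called higher among all genes tested. The Col-0 side of this comparison also holds 1 of the 4 libraries against their label, after +Phi (A1). It had 7.48 CPM of PAP10, where the experiment A median of that Col-0 group was 35.2 CPM.

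Within phr1 phl1, low Pi still raised some members. With SynCom 4 of 10 rose, against 5.33% of all genes tested, and without bacteria 2 of 10, against 0.378%. PAP1 had 26.9 to 80.5 CPM (median 55.4) at low Pi and 7.44 to 42.6 CPM (median 23.7) at high Pi with SynCom (1.31 ± 0.20, adjusted p = 7.38e-07), PAP17 rose by 1.51 ± 0.27 and PAP12 by 0.88 ± 0.12. PAP14 was called at 3.62 ± 1.23 (adjusted p = 0.0454) on 36 counts at low Pi and 4 at high Pi, and was not called with any 1 of the 4 replicate numbers left out. Without bacteria PAP1 rose by 0.83 ± 0.20 and PAP12 by 0.51 ± 0.12, and both calls were lost without the A1 and without the A2 libraries. The Pi response with SynCom was smaller in phr1 phl1 than in Col-0 for 4 members, against 7.17% of all genes tested, and the differences were −2.74 ± 0.52 for PAP22, −2.47 ± 0.38 for PAP17, −1.0003 ± 0.17 for PAP12 and −0.99 ± 0.28 for PAP1, the last of which was not called without the A1 or the A2 libraries. In phr1 phl1 the Pi responses with and without SynCom gave 0 calls of a difference among the members with edgeR, against 0.145% of all genes tested, with 1 at an unadjusted p under 0.05, 0 with DESeq2 and 0 with limma-voom.

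SynCom at low Pi raised PAP1 and lowered PAP26 in phr1 phl1, where 2.66% of all genes tested were called higher and 1.58% lower. PAP1 had 26.9 to 80.5 CPM (median 55.4) with SynCom and 10.4 to 62.2 CPM (median 38.2) without (0.78 ± 0.20, adjusted p = 0.00764), but the value was −0.01 in A and 1.54 in B, and the difference between the experiments was called (adjusted p = 6.1e-05). PAP26 had 122 to 194 CPM (median 148) with SynCom and 151 to 216 CPM (median 174) without, at −0.23 ± 0.07 (adjusted p = 0.0414). The PAP26 calls in phf1 and phr1 phl1, like that of PAP1 here, were lost without the B1 and without the B2 libraries. The SynCom response at low Pi was smaller in phr1 phl1 than in Col-0 for 6 members, against 3.80% of all genes tested. Of these PAP22 differed by −2.24 ± 0.54, PAP17 by −1.59 ± 0.36, PAP12 by −1.29 ± 0.16 and PAP1 by −1.25 ± 0.28, and PAP14 and PAP25 were called as well, on low counts. The calls of PAP17, PAP22 and PAP1 were lost without the A2 libraries.

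Of the 10 members, 6 were called lower after pre-treatment with phosphite in Col-0 at low Pi with SynCom. After +Phi 0 were called higher than after +P, DESeq2 called 3 members, and 3.48% of all genes tested were called lower by edgeR (4 against 4 libraries). PAP17 had 127, 211, 94.4 and 167 CPM after +Phi and 445, 669, 281 and 284 CPM after +P, in replicates A1, A2, B1 and B2. The 2 groups did not overlap, and the log2 fold change was −1.35 ± 0.44 (adjusted p = 0.044). PAP14 had 2.48, 4.45, 5.90 and 20.3 CPM after +Phi and 47.9, 125, 26.2 and 45.5 CPM after +P (−2.32 ± 0.62, adjusted p = 0.0134), again without overlap.

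PAP23 had 0.678, 0.927, 2.13 and 1.28 CPM after +Phi and 9.65, 35.3, 4.11 and 5.67 CPM after +P (−3.07 ± 0.60, adjusted p = 0.00128). PAP25 had 1.13, 0.371, 0.328 and 2.78 CPM after +Phi and 5.32, 35.1, 5.25 and 8.51 CPM after +P (−3.32 ± 0.67, adjusted p = 0.00145). PAP1 had 41.6, 58.7, 25.7 and 46.6 CPM after +Phi and 111, 169, 76.4 and 76.6 CPM after +P (−1.27 ± 0.33, adjusted p = 0.0102). In each of these 3 genes every +Phi library was below every +P library. PAP12 was the sixth, with a log2 fold change of −0.92 ± 0.20, and had 1 value after +Phi (108 CPM in A2) above the lowest after +P (104 CPM in B1). The A2 library of the +P group was the highest of its group for all 10 members. The count was 3 without the A1 libraries and 3 without the B1 libraries. Without the A2 libraries 0 of the members were called, and the values were −1.25, adjusted p = 0.239 for PAP17 and −2.06, adjusted p = 0.105 for PAP23. The 7 root markers together had 188 to 213 CPM (median 199.7) after +Phi and 139 to 462 CPM (median 254) after +P, and their part in these values was not tested. The 5 leaf markers together had 24436 to 41810 CPM (median 32810) after +Phi and 9414.5 to 31427 CPM (median 21874) after +P. Their part was not tested either.

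After −P the members were not told apart from those after +P in this condition. PAP17 averaged 401 ± 116 CPM after −P and 419.7 ± 183 CPM after +P, and PAP14 averaged 60.3 ± 8.84 CPM after −P and 61.2 ± 43.7 CPM after +P (SD, n = 4 each). EdgeR called 0 members, against 0.00518% of all genes tested, with 0 members at an unadjusted p under 0.05, 0 by DESeq2 and 0 by limma-voom. The 95% interval for PAP17 ran from −0.83 to 0.84. Averaged over the 4 conditions of Pi and bacteria, +Phi lowered PAP12 in Col-0 (−0.36 ± 0.10, adjusted p = 0.0448) and in phf1 (−0.37 ± 0.10, adjusted p = 0.0494), and PAP17 (−1.14 ± 0.23, adjusted p = 0.0015) and PAP1 (−0.71 ± 0.17, adjusted p = 0.0105) in phr1 phl1. The PAP12 calls were lost under most of the alternatives tried. These were all the members called in these 3 comparisons, in which 0.595%, 0.295% and 2.71% of all genes tested were called lower in Col-0, phf1 and phr1 phl1.

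**Figure D4:**
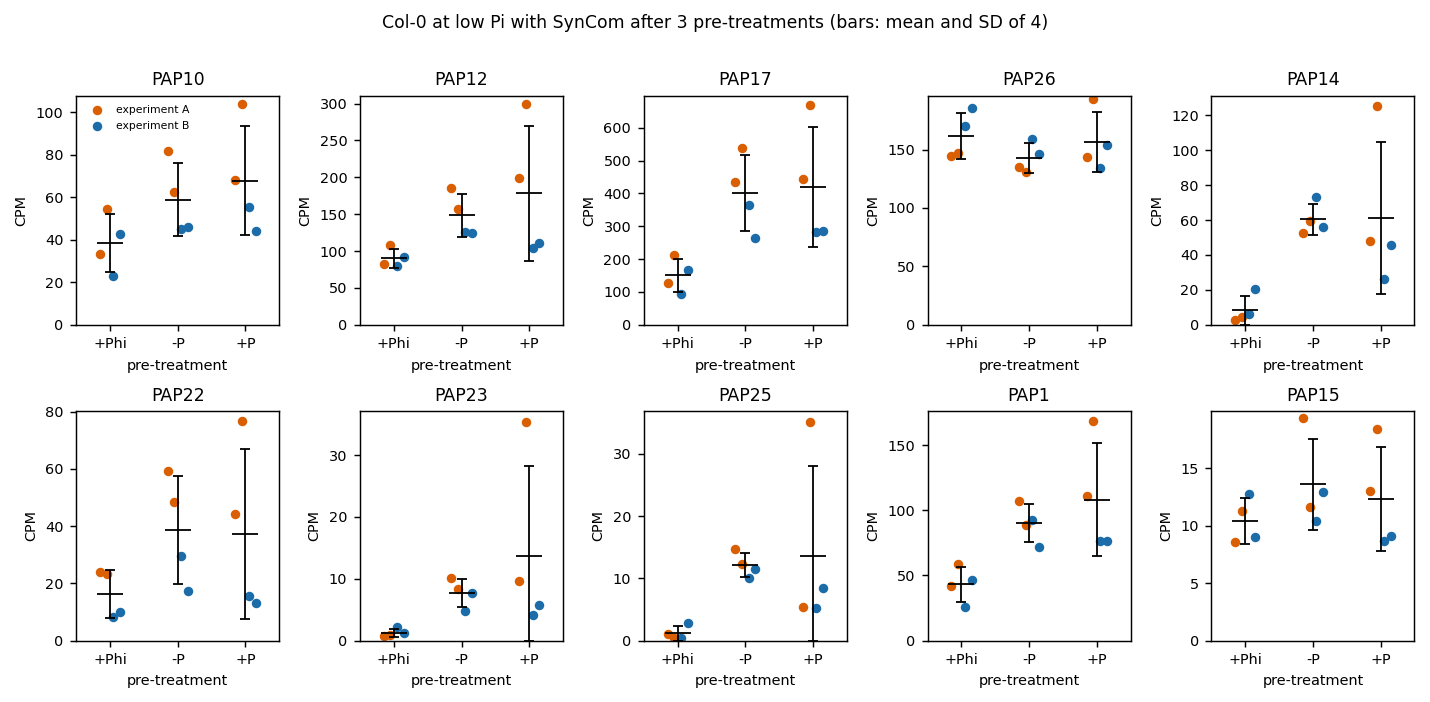
CPM of the 10 PAP genes in Col-0 at low Pi with SynCom after +Phi, −P and +P pre-treatment, 4 libraries each, coloured by experiment, with bars for mean and SD. PAP17, PAP14, PAP23, PAP25 and PAP1 were lower in every +Phi library than in every +P library, and 1 library of +P from experiment A stands highest of its group in all panels.

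Of 200 A minus B differences of log2 fold changes tested in the members, 21 were called, against 6.67% over all genes tested. Most of the 21 were in SynCom responses, for which no separate share of all genes tested was taken. In Col-0 at low Pi SynCom raised PAP22 by 3.75 in A and 0.91 in B (difference adjusted p = 5.81e-07), PAP12 by 1.78 in A and 1.28 in B and PAP1 by 1.65 in A and 2.43 in B, and these differences were called too. PAP22 levels in that group were 23.4 to 76.7 CPM in A and 8.36 to 29.5 CPM in B (6 libraries each). In phr1 phl1 at low Pi, the SynCom value was −0.18 in A and 1.96 in B for PAP17 and −0.21 in A and 0.84 in B for PAP12. Both were called in B and neither in A. The PAP26 decrease with SynCom in Col-0 lay in B (−0.03 in A and −0.35 in B at low Pi, 0.03 in A and −0.39 in B at high Pi, both differences called). The response to low Pi with SynCom in Col-0 differed between the experiments for PAP12 (2.15 in A and 1.56 in B, called). For the others named here the difference was not called, at 3.72 in A and 4.15 in B for PAP17, 2.36 in A and 2.24 in B for PAP1, 2.31 in A and 2.95 in B for PAP22 and 1.74 in A and 0.93 in B for PAP10.

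**Figure D5:**
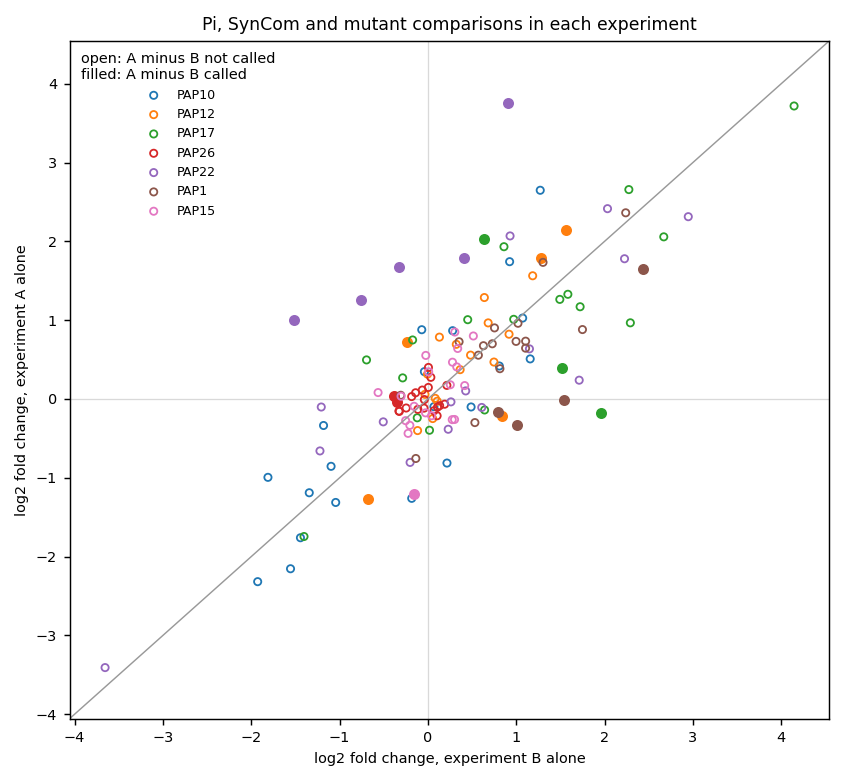
Log2 fold changes of 7 PAP genes in the 20 Pi, SynCom and mutant comparisons, with experiment A alone on the y axis and experiment B alone on the x axis; filled points are those whose A minus B difference was called, and PAP14, PAP23 and PAP25 are left out for their low counts. PAP22 has the filled points farthest above the diagonal.

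Over 72 means of log2 CPM (36 groups in 2 experiments, each experiment centred), several members had like patterns, given as a description over points that share libraries and depth. Pearson's r was 0.967 for PAP14 and PAP25, 0.957 for PAP23 and PAP25 and 0.941 for PAP14 and PAP23. It was 0.921 for PAP12 and PAP17 and 0.9002 for PAP17 and PAP1. PAP10 reached at most 0.637 with another member (PAP23), and PAP26 lay between −0.219 (PAP1) and 0.229 (PAP22). Among all genes tested, the 3 most like PAP14 were PAP25, AT3G25240 (r = 0.957) and SULTR1;3 (AT1G22150, r = 0.946). For PAP23 they were AT5G17340 (r = 0.980), AT2G34210 (r = 0.973) and PAP5 (AT1G52940, r = 0.966), and for PAP25 they were PAP5 (r = 0.969), PAP14 and PAP23. PAP14, PAP23 and PAP25 had 0 counts in 76, 101 and 86 libraries and passed the filter only through groups in which they were high. Part of their likeness, to each other and to the genes named here, was therefore built in.

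Of the other 19 genes of the family, 15 passed the filter, and PAP6, PAP13, PAP20 and PAP21 did not. In Col-0 with SynCom, low Pi raised 8 of the 15 and lowered 2, with a median log2 fold change of 0.61, against 22.2% called higher and 21.2% called lower among all genes tested. The largest changes were in PAP5, PAP24 and PAP11. PAP5, PAP11, PAP16 and PAP19 were among the 8 and held 1876, 228, 170 and 230 counts over all libraries. For genes with so few counts the filter built in some difference, as for PAP14, PAP23 and PAP25. The counts of called genes and the median of the 15 carry that limit. PAP24 averaged 16.1 ± 15.8 CPM at low Pi and 0.0981 ± 0.149 CPM at high Pi (SD, n = 12 each), and PAP5 averaged 19.2 ± 26.4 CPM at low Pi and was at 0 in the 12 high Pi libraries. In phr1 phl1 with SynCom 0 of the 15 rose and 3 fell, against 5.33% and 4.50% of all genes tested. Of 9 other genes of Pi scavenging, 8 rose in Col-0 with low Pi and SynCom and 0 fell (median 2.44), and 5 rose in phr1 phl1. The largest changes were in PECP1, a phosphatase of phosphocholine and phosphoethanolamine (8.14 ± 0.48), PPsPase1, a pyrophosphatase (8.09 ± 0.55), and G3Pp1, annotated as a glycerol-3-phosphate permease (4.37 ± 0.29). Both lists were drawn up with earlier results of these data known.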

How the data were processed

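Poly(A) RNA of whole seedlings was sequenced as non-stranded libraries, per the labels' protocols. The deposited table holds read counts per gene for all libraries. Per the submitters' processing notes the tools included HTSeq 0.6.1p1, TopHat2 2.1.1, cutadapt 1.3 and CASAVA 1.8, and the genome was TAIR10; how reads matching several genes were counted is not given in the sources used here. Columns were matched to samples by library name, and sample titles gave each library's genotype, pre-treatment, Pi level, bacteria, experiment and replicate.

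From the counts as deposited, edgeR 4.0.16 in R 4.3.3 gave TMM factors, CPM and the filter (filterByExpr, minimum count 10, 36 groups), which kept 19321 genes. A quasi-likelihood fit used 36 group means and an experiment term, with 37 contrasts, Benjamini-Hochberg adjustment within each contrast and calls at an adjusted p under 0.05. Each experiment was also fitted alone, and differences between experiments were tested in a fit with means per group and experiment. The pipeline was tested on simulated data. DESeq2 1.42.0 and limma-voom (limma 3.58.1) with quality weights were alternatives, beside other scalings, other filters and fits without libraries. Libraries held 720256 to 10668475 counts, so a gene with 0 counts may lie below detection. Intervals of pooled counts are exact at 95%, and the floor for 0 counts is 3 counts over the group. Standard errors of log2 fold changes were back-calculated from the F statistic, so the intervals built from them are approximate.

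The biological replicates are 4 per group from 2 experiments. No pair of replicates held identical counts. Upstream sequences, motif positions, protein lengths and gene overlaps come from the RefSeq annotation of TAIR10.1, proteins being translated from its coding sequences. The count table has no coordinates. The genes named are the 10 members, the 3 other PAP genes and the 3 other scavenging genes with the largest called change in Col-0 with SynCom, and the 3 genes most like PAP14, PAP23 and PAP25. Members, lists and tests were chosen with earlier results of these data known.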

Additional observations from a re-analysis of the deposited data

Results flagged for a closer look

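In 1 of the 30 groups of 4 libraries examined, which are a part of the members' groups in the series, a library stood apart by Dixon's criterion. PAP25 in Col-0 after +P at low Pi with SynCom had 35.1 CPM in library A2, and 5.25, 5.32 and 8.51 CPM in the other 3. Chance flags about 1 in 20 groups. The comparison of +Phi with +P uses this library, and without the A2 libraries the PAP25 value was −2.30, adjusted p = 0.103 by edgeR. Other groups of 4 can hold such a library too. PAP10 in phr1 phl1 after +P at high Pi with SynCom had 60.3 CPM in A1. It had 3.68, 4.25 and 5.11 CPM in A2, B1 and B2.

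Of 200 differences between experiments A and B tested in the members, 21 were called by edgeR at an adjusted p under 0.05. Over all genes tested, 6.67% of such differences were called. Most of the members' 21 were in SynCom responses, for which no separate share of all genes tested was taken. PAP22 responded more to SynCom in A than in B at low Pi in Col-0 (A minus B 2.84), phf1 (1.36) and phr1 phl1 (2.51), and at high Pi in Col-0 (1.999) and phr1 phl1 (1.997). PAP1 responded less in A than in B at low Pi in Col-0 (−0.79) and phr1 phl1 (−1.57) and at high Pi in Col-0 (−1.34) and phr1 phl1 (−0.97). PAP17 responded less in A at low Pi in phf1 (−1.15) and phr1 phl1 (−2.16), and PAP14 in phf1 (−2.76). PAP12 at low Pi responded more in A in Col-0 (0.50) and less in phr1 phl1 (−1.07). PAP26 in Col-0 had SynCom values nearer 0 in A than in B, and A minus B was 0.31 at low Pi and 0.42 at high Pi. The cause of these differences between experiments was not tested.

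Among the other differences between A and B, the response to low Pi was larger in A for PAP12 in Col-0 with SynCom (0.58) and for PAP17 in phf1 without bacteria (1.39). In phr1 phl1 against Col-0 at low Pi, PAP12 differed by 0.98 where no bacteria were present. With SynCom, PAP12 differed by −0.58 and PAP15 by −1.04. PAP15 was lower in phr1 phl1 in A (−1.20), and its value in B was −0.16.

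Of 90 differences of responses tested in the members over both experiments, 25 were called, against 4.82% over all genes tested. The Pi response with SynCom minus that without was 1.36 for PAP10, 1.51 for PAP12, 2.61 for PAP17 and 1.801 for PAP1 in Col-0, and 1.40 for PAP10, 0.86 for PAP12, 1.06 for PAP17, 1.61 for PAP22 and 0.62 for PAP15 in phf1. The Pi response with SynCom in phr1 phl1 minus that in Col-0 was −1.0003 for PAP12, −2.47 for PAP17, −2.74 for PAP22 and −0.99 for PAP1. The SynCom response at low Pi in phf1 minus that in Col-0 was −0.95 for PAP12, −1.51 for PAP17, −4.53 for PAP14, −4.30 for PAP23, −3.53 for PAP25 and −1.14 for PAP1, and in phr1 phl1 minus Col-0 it was −1.29 for PAP12, −1.59 for PAP17, −7.64 for PAP14, −2.24 for PAP22, −7.08 for PAP25 and −1.25 for PAP1. Values for PAP14, PAP23 and PAP25 rest on groups with few counts.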

How the results depend on the processing

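The number of the 10 members called was recomputed for each comparison under 15 alternatives. All 115 called values of the members were still called with the replicate number as a block. Over 630 pairs of groups in each experiment, same-numbered libraries' deviations correlated at a mean of −0.00848 in A and −0.00831 in B, and over 0.1 in 167 and 210 pairs, so the numbers did not pair libraries. The members' count for low Pi with SynCom in Col-0, which is 8, was 8 with the block. That count, those for low Pi with SynCom in phf1 and phr1 phl1, for SynCom at low Pi in Col-0 and phf1, and for phr1 phl1 against Col-0 at low Pi with SynCom stayed within 1.5 times under each alternative run. The cause of the changes given next was not tested, apart from the fewer libraries in fits of part of the data.

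Leaving out 1 replicate number at a time (36 libraries, A1, A2, B1 or B2) gave counts of 0 to 1 for low Pi without bacteria in Col-0, 1 to 6 for low Pi without bacteria in phf1, 0 to 1 for low Pi without bacteria in phr1 phl1, 0 to 2 for SynCom at high Pi in Col-0, 0 to 3 for SynCom at low Pi in phr1 phl1, 0 to 1 for phf1 against Col-0 at low Pi with SynCom, 1 to 3 for phr1 phl1 against Col-0 at low Pi without bacteria, 0 to 1 for phr1 phl1 against Col-0 at high Pi with SynCom, 0 each time for +Phi in Col-0 over 4 conditions, 0 to 1 for +Phi in phf1 over 4 conditions, 1 to 2 for +Phi in phr1 phl1 over 4 conditions, 0 to 6 for +Phi in Col-0 at low Pi with SynCom, 2 to 4 for the Pi response with minus without SynCom in phf1, 0 to 4 for the SynCom response at low Pi of phf1 minus Col-0 and 3 to 7 for the SynCom response at low Pi of phr1 phl1 minus Col-0. Without the experiment term the count was 0 for low Pi without bacteria in Col-0, low Pi without bacteria in phr1 phl1, SynCom at high Pi in Col-0, SynCom at low Pi in phr1 phl1, +Phi in Col-0 over 4 conditions, +Phi in phf1 over 4 conditions and +Phi in phr1 phl1 over 4 conditions, 1 for phf1 against Col-0 at high Pi with SynCom and phr1 phl1 against Col-0 at low Pi without bacteria, and 3 for +Phi in Col-0 at low Pi with SynCom, the Pi response with minus without SynCom in phf1 and the SynCom response at low Pi of phf1 minus Col-0. With DESeq2 the count was 2 for low Pi without bacteria in Col-0 and phr1 phl1 against Col-0 at high Pi with SynCom, 3 for +Phi in Col-0 at low Pi with SynCom, and 7 for the Pi response with minus without SynCom in Col-0 and the Pi response of phr1 phl1 minus Col-0 with SynCom. With limma-voom the count was 0 for +Phi in phf1 over 4 conditions, 1 for SynCom at high Pi in phr1 phl1, phf1 against Col-0 at low Pi with SynCom and the Pi response of phf1 minus Col-0 with SynCom, 2 for low Pi without bacteria in Col-0, 4 for low Pi without bacteria in phr1 phl1, 7 for the Pi response of phr1 phl1 minus Col-0 with SynCom, and 8 for the Pi response with minus without SynCom in Col-0 and the Pi response with minus without SynCom in phf1. With only the compared libraries the count was 0 for SynCom at high Pi in Col-0, SynCom at low Pi in phr1 phl1, phr1 phl1 against Col-0 at high Pi with SynCom, +Phi in Col-0 over 4 conditions and +Phi in phf1 over 4 conditions, 1 for SynCom at high Pi in phf1, phf1 against Col-0 at low Pi with SynCom and the Pi response of phf1 minus Col-0 with SynCom, 2 for low Pi without bacteria in Col-0, phr1 phl1 against Col-0 at high Pi without bacteria and +Phi in Col-0 at low Pi with SynCom, 4 for phr1 phl1 against Col-0 at low Pi without bacteria, and 5 for low Pi without bacteria in phr1 phl1. In experiment B alone the count was 0 for low Pi without bacteria in phf1, low Pi without bacteria in phr1 phl1, +Phi in phf1 over 4 conditions and the SynCom response at low Pi of phf1 minus Col-0, 1 for SynCom at high Pi in phf1, SynCom at high Pi in phr1 phl1, phf1 against Col-0 at low Pi with SynCom, +Phi in Col-0 at low Pi with SynCom, the Pi response with minus without SynCom in phr1 phl1 and the SynCom response at low Pi of phr1 phl1 minus Col-0, 2 for low Pi without bacteria in Col-0, SynCom at high Pi in Col-0 and +Phi in Col-0 over 4 conditions, 3 for phf1 against Col-0 at low Pi without bacteria, and 5 for SynCom at low Pi in phr1 phl1. In experiment A alone the count was 0 for SynCom at low Pi in phr1 phl1 and +Phi in Col-0 over 4 conditions, 2 for SynCom at high Pi in Col-0, phr1 phl1 against Col-0 at high Pi with SynCom and +Phi in phf1 over 4 conditions, and 3 for the Pi response with minus without SynCom in phf1. Without the filter the count was 0 for +Phi in Col-0 over 4 conditions and +Phi in phf1 over 4 conditions, 1 for SynCom at low Pi in phr1 phl1, and 3 for the Pi response with minus without SynCom in phf1. Without the 4 libraries against their label (chosen after seeing the data) the count was 0 for +Phi in Col-0 over 4 conditions and +Phi in phf1 over 4 conditions, 1 for phf1 against Col-0 at low Pi with SynCom, and 3 for the Pi response with minus without SynCom in phf1. With a filter of 1 CPM in 4 libraries the count was 0 for +Phi in Col-0 over 4 conditions and +Phi in phf1 over 4 conditions. With DESeq2 size factors the count was 0 for +Phi in phf1 over 4 conditions. In experiment A alone, SynCom at low Pi in phr1 phl1 had a PAP1 value of −0.010, of the other sign. PAP14, PAP23 and PAP25 are limited by depth: their low groups held few counts, and a library of 720256 counts can miss them.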
